A study of Mus musculus with 6 samples.

Results

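The 8 genes described here make, move, sense and break down sphingosine-1-phosphate (S1P): the kinases Sphk1 and Sphk2, the exporter Spns2, the receptors S1pr1, S1pr2 and S1pr4, the phosphatase Sgpp1 and the lyase Sgpl1. They were chosen by symbol from the 49315 genes of an RNA-Seq table, not by their values. The table holds 3 libraries of mature osteoclasts and 3 libraries of bone marrow macrophages (BMMs), all of wild-type mouse cells. Osteoclasts came from BMMs kept for 4 days in αMEM with 10% serum, CMG14-12 cell supernatant (a source of M-CSF) diluted 1 in 50, and 75 ng/mL RANKL, the cytokine that drives osteoclast formation. BMMs were untreated cells at day 0, grown with 10% of the same supernatant and 10% serum and no RANKL. The RANKL, the lower supply of M-CSF and the days in culture therefore cannot be told apart. The strain, sex and age of the mice behind these libraries are not stated in any source used here. The labels number them as biological replicates but name no animal or culture, and the p-values measure the spread between these libraries only, which may be technical.

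S1P is a signalling lipid. It arises when a sphingosine kinase phosphorylates sphingosine, the base released from ceramide. It leaves cells through transporters such as Spns2 and then acts on G protein-coupled receptors at the cell surface. Inside the cell, S1P phosphatases return it to sphingosine, and the S1P lyase of the endoplasmic reticulum cleaves it irreversibly. In mouse bone, S1P is known to guide the migration of osteoclast precursors through S1pr1, which draws cells toward S1P, and S1pr2, which repels them, and S1P secreted by osteoclasts is known to act on osteoblasts.

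The cultures carried the markers of their labels. All 10 osteoclast marker genes examined were higher in osteoclasts, with a summed level of 38249 to 38837 TPM in osteoclasts and 333 to 354 TPM in BMMs (TPM, a transcript level scaled by gene length and to the same total in each library). Of 9 macrophage marker genes, 1 was higher, 7 were lower and 1 did not pass the test, and their sum was 4636 to 5471 TPM in osteoclasts and 6550.1 to 6693 TPM in BMMs. Of all genes tested, 45.3% were higher and 23.5% were lower. Calcr, Oscar and Ocstamp averaged 1 TPM or more only through their osteoclast libraries, and the macrophage gene Ccr2 only through its BMM libraries. That mean was required for the test, so these genes had to differ to be tested. Correlations of log2(TPM + 1) between libraries were 0.987 to 0.992 among osteoclasts, 0.995 to 0.996 among BMMs and 0.883 to 0.89 between the groups, and no library stood apart from its group. TPM carries no record of sequencing depth, which is unknown here.

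RNA of the 8 S1P genes moved in both directions. Both kinases and the exporter Spns2 were higher in osteoclasts than in BMMs, while the 3 receptors, the phosphatase and the lyase were lower. Not every related gene outside the 8 followed this split. The receptor gene S1pr3, which was too scarce to be tested, and the phosphatase gene Plpp1 were higher in osteoclasts. The exporter gene Abca1 was lower. Spns2 was 254-fold and Sphk1 34.2-fold higher, and S1pr1 was 78.0% lower. In a limma fit on log2(TPM + 1) over the 12325 genes that averaged 1 TPM or more, all 8 genes were tested and passed an adjusted p of 0.05, 3 higher and 5 lower. That count has to be read against a comparison in which 68.9% of all genes tested passed, 45.3% higher and 23.5% lower. The 2 groups did not overlap for 8 of 8 S1P genes and for 73.5% of all genes tested. Sphk1 and Spns2 passed the filter on low values only through their osteoclast libraries, so they had to differ to be tested. The median log2 fold change was -0.46 over the 8 genes and 0.19 over all genes tested, and the share of calls depended on scaling. After median-ratio scaling the median of all genes was 0.00, with 33.7% higher and 33.5% lower, and Sphk2 no longer passed. These are bulk RNA values, in which fewer cells of a type and less RNA per cell cannot be told apart.

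**Figure D1:**
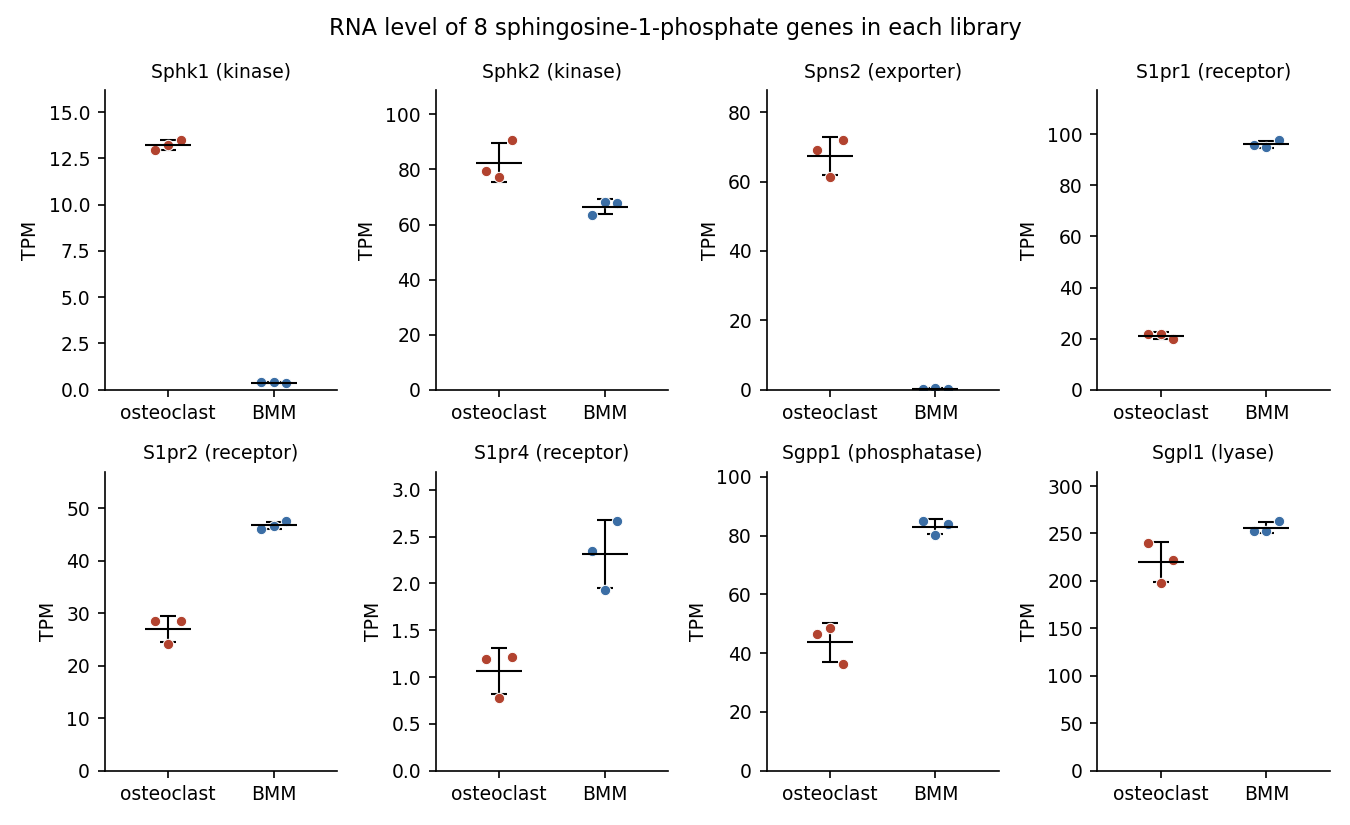
TPM (linear axes from 0, each gene with its own scale) of the 8 S1P genes in 3 osteoclast and 3 BMM libraries, with each point a library and each bar the group mean with its SD. Spns2 stood at 61.2 to 71.9 TPM in osteoclasts and 0.168 to 0.371 TPM in BMMs, and no gene had overlapping groups.

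Sphk1 encodes the sphingosine kinase found mainly in the cytoplasm, which moves to the plasma membrane on activation. The gene (ENSMUSG00000061878) lies on the plus strand of chromosome 11 of GRCm38, from 116530925 to 116536674. Its RNA measured 12.9, 13.2 and 13.5 TPM in osteoclast replicates 1, 2 and 3, against 0.426, 0.394 and 0.340 TPM in BMM replicates 1, 2 and 3. Osteoclast libraries were all high and within a narrow band, and the lowest of them was 30.3 times the highest BMM library. The means were 13.2 ± 0.273 TPM in osteoclasts and 0.387 ± 0.0438 TPM in BMMs (SD, n = 3 each), and the log2 fold change on the log2(TPM + 1) scale was 3.36 ± 0.09 (SE, limma adjusted p = 2.9e-08). The pseudocount of 1 TPM exceeds the BMM level and understates the change, which was 4.78 with a pseudocount of 0.1 TPM. Of all genes tested, 0.901% had a log2 fold change at least as large. The gene shares 192 exonic bases with the antisense gene Gm29292, which measured 0.243 TPM in osteoclasts and was listed at 0 in BMMs.

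RefSeq promoter sequences of build GRCm38.p6, 250 bases before each annotated start, were available for 7 of the 8 genes, in 12 windows. They were searched on both strands for TGANTCA, the AP-1 site bound by Fos and Jun factors, for TGACGTCA, the cyclic AMP response element (CRE), and for GGAAA, the core of NFAT sites. These letters occur in 6.75%, 1.55% and 55.6% of all 32851 windows in the RefSeq table. Of the 12 windows, AP-1 letters were in 2, both of Sphk1 and overlapping at the same match. CRE letters were in 1 window, of S1pr2, and the NFAT core was in 11 windows, of 6 of the 7 genes. The genes differ in their number of windows, so the shares of all windows apply to windows and not to genes. The CRE was added to the search after the sequences had been looked at. A match shows the letters only, and binding was not measured. The Sphk1 match starts 50 bases before 1 of several annotated starts and is shown with its flanks because Sphk1 is one of the genes that changed most. The 30 bases at chr11:116531775-116531804, plus strand, also lie in the untranslated first part of a longer annotated Sphk1 transcript, and the capitals mark the AP-1 letters.
Sphk1: tgagcgtgtcgcTGAGTCAccttctcggaa

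Sphk2 encodes the second kinase, found largely in the nucleus, endoplasmic reticulum and mitochondria. It carried most of the kinase RNA in both groups. The gene (ENSMUSG00000057342) lies on the minus strand of chromosome 7, from 45709467 to 45718002. Sphk2 measured 79.4, 77.4 and 90.6 TPM in osteoclast replicates 1 to 3, and 63.3, 68.3 and 67.7 TPM in BMM replicates 1 to 3. The groups lay close to each other without overlap, the lowest osteoclast library being 1.13 times the highest BMM library. The means were 82.5 ± 7.11 TPM in osteoclasts and 66.4 ± 2.72 TPM in BMMs, with a log2 fold change of 0.30 ± 0.07 (SE, limma adjusted p = 0.0059). This call rested on scaling. The log2 fold change was 0.09 after median-ratio scaling (adjusted p = 0.34), 0.10 after quantile normalization (adjusted p = 0.25) and 0.13 after rescaling without mitochondrial and the 20 highest genes (adjusted p = 0.15). Of the 4159 exonic bases of Sphk2, 373 are shared with Rpl18 and 539 with Dbp, both on the opposite strand, and no source used here says whether counting used strand. Rpl18, which encodes a ribosomal protein, measured 421 TPM in osteoclasts and 218 TPM in BMMs, and Dbp, which encodes a circadian transcription factor, measured 13.2 TPM in osteoclasts and 23.2 TPM in BMMs. Their part in the Sphk2 values was not tested.

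The balance of the kinases shifted toward Sphk1 without reversing. Sphk1 made up 14.0%, 14.6% and 12.9% of the summed kinase TPM in osteoclast replicates 1 to 3, and 0.669%, 0.573% and 0.499% in BMM replicates 1 to 3. Sphk2 remained 6.24 ± 0.44 times Sphk1 in osteoclasts and was 174 ± 25.5 times Sphk1 in BMMs. The difference log2(Sphk1 + 1) minus log2(Sphk2 + 1) was -2.55 ± 0.10 in osteoclasts and -5.60 ± 0.10 in BMMs (SD, n = 3 each), a shift of 3.05. A two-sided exact permutation test gave p = 0.1, the smallest that 3 libraries against 3 allow. Summed kinase RNA was 95.7 ± 7.33 TPM in osteoclasts and 66.8 ± 2.68 TPM in BMMs (exact permutation p = 0.1), most of it Sphk2 in both groups.

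Spns2 encodes the major facilitator family transporter that releases S1P from endothelial and other cells. It had the largest change of the 8 genes. The gene (ENSMUSG00000040447) lies on the minus strand of chromosome 11, from 72451638 to 72489904. Spns2 measured 69.2, 61.2 and 71.9 TPM in osteoclast replicates 1 to 3, against 0.258, 0.371 and 0.168 TPM in BMM replicates 1 to 3. It was abundant in every osteoclast library and near 0 in every BMM library, and the lowest osteoclast value was 165 times the highest BMM value. Mean levels were 67.4 ± 5.53 TPM in osteoclasts and 0.266 ± 0.102 TPM in BMMs, with a log2 fold change of 5.76 ± 0.10 (SE, limma adjusted p = 3.8e-09). With a pseudocount of 0.1 TPM the change was 7.56. A change at least as large as that of Spns2 was found in 16 genes, 0.13% of those tested. Spns2 shares 131 exonic bases with Mybbp1a on the opposite strand, which encodes a nucleolar protein and measured 146 TPM in osteoclasts and 51.3 TPM in BMMs. The part of Mybbp1a in the Spns2 values was not tested. Mfsd2b, the S1P exporter of red cells and platelets, averaged 0.225 TPM in osteoclasts and 0.552 TPM in BMMs, below the filter, and was singled out after its values were seen.

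The RefSeq window of Spns2, shown because this gene changed most, lies at chr11:72475028-72475277 on the minus strand. It belongs to a start inside the gene as GENCODE annotates it, and whether that start was used in these cells was not tested. The window holds neither AP-1 nor CRE letters, so none of it is in capitals. It does hold 1 match to the NFAT core, a motif not put in capitals in any sequence shown.
Spns2: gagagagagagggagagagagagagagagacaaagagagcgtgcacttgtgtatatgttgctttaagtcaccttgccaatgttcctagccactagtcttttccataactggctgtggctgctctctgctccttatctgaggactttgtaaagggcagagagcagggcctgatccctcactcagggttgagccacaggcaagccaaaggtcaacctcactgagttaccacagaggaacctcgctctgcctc

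All 3 receptors were lower in osteoclasts, and S1pr1 fell furthest. S1pr1 encodes the receptor that couples to Gi proteins and draws leukocytes toward S1P. The gene (ENSMUSG00000045092) lies on the minus strand of chromosome 3, from 115710433 to 115715072. Its level was 21.8, 21.9 and 19.7 TPM in osteoclast replicates 1 to 3, and 95.8, 95.0 and 97.6 TPM in BMM replicates 1 to 3. Each group held a narrow range, far from the other. The means were 21.2 ± 1.24 TPM in osteoclasts and 96.2 ± 1.35 TPM in BMMs, so that BMMs had 4.54 times as much, and the log2 fold change was -2.13 ± 0.06 (SE, limma adjusted p = 5.0e-08). Of all genes tested, 1.39% fell at least as far.

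S1pr2 encodes a receptor that couples to G12 and G13 proteins as well as Gi and Gq, and it holds cells back from S1P. The gene (ENSMUSG00000043895) lies on the minus strand of chromosome 9, from 20962361 to 20976781. It measured 28.4, 24.2 and 28.4 TPM in osteoclast replicates 1 to 3, and 46.1, 46.7 and 47.5 TPM in BMM replicates 1 to 3. Every osteoclast library was below every BMM library, with osteoclast replicate 2 the lowest. S1pr2 averaged 27.0 ± 2.46 TPM in osteoclasts and 46.7 ± 0.706 TPM in BMMs, 42.2% lower, with a log2 fold change of -0.77 ± 0.08 (SE, limma adjusted p = 3.4e-05). Its RefSeq promoter window at chr9:20976794-20977043, minus strand, is shown because it alone among the windows of the S1P genes holds the CRE letters, in capitals. They begin 181 bases before the RefSeq start, which lies just outside the gene as GENCODE annotates it. Whether that start was used in these cells was not tested.
S1pr2: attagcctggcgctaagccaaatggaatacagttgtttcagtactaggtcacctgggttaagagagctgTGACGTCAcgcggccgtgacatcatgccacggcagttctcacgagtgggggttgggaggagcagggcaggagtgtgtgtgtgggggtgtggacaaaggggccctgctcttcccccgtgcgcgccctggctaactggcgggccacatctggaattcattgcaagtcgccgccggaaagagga

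S1pr4 encodes a receptor known mainly from lymphoid and myeloid cells. It was the scarcest of the 3 receptors in both groups. The gene (ENSMUSG00000044199) lies on the minus strand of chromosome 10, from 81497747 to 81500132. S1pr4 measured 1.19, 0.778 and 1.22 TPM in osteoclast replicates 1 to 3, and 2.35, 1.93 and 2.66 TPM in BMM replicates 1 to 3. All osteoclast libraries were again below all BMM libraries, at levels close to the filter. The means were 1.06 ± 0.246 TPM in osteoclasts and 2.31 ± 0.368 TPM in BMMs, with a log2 fold change of -0.69 ± 0.14 (SE, limma adjusted p = 0.0025), and the change was -1.07 with a pseudocount of 0.1 TPM.

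S1pr1 fell further than S1pr2, and the order of these receptors reversed. S1pr1 RNA was 0.768, 0.908 and 0.694 times S1pr2 RNA in osteoclast replicates 1 to 3, and 2.08, 2.03 and 2.06 times in BMM replicates 1 to 3. S1pr1 was the more abundant in every BMM library and the less abundant in every osteoclast library. Of the summed TPM of receptors S1pr1 to S1pr5, S1pr1 held 42.0 ± 3.52% in osteoclasts and 66.2 ± 0.187% in BMMs, and S1pr2 held 53.4 ± 2.77% in osteoclasts and 32.2 ± 0.302% in BMMs (exact permutation p = 0.1 for each, the smallest possible). The S1pr4 share was 2.09 ± 0.412% in osteoclasts and 1.59 ± 0.231% in BMMs (exact permutation p = 0.3), with overlapping ranges of 1.62% to 2.39% in osteoclasts and 1.34% to 1.80% in BMMs. Adjusted over the 5 receptor shares and the 8 other sums and ratios computed, the exact p-values of 0.1 became 0.12. Summed receptor RNA was 50.5 ± 2.30 TPM in osteoclasts and 145 ± 2.28 TPM in BMMs (exact permutation p = 0.1). S1pr3, a receptor that couples to Gi, Gq and G12/13 proteins, had a mean below 1 TPM and was not tested across genes. It measured 1.10, 1.14 and 1.64 TPM in osteoclast replicates 1 to 3, and 0.0939, 0.0406 and 0.125 TPM in BMM replicates 1 to 3, and so differed in direction from the other receptors without overlap of the groups. S1pr5, known from natural killer cells, was listed at 0 in 3 of 3 osteoclast libraries and at 0.0281 TPM or less in BMMs. S1pr3 and S1pr5 were named after their values were seen.

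**Figure D2:**
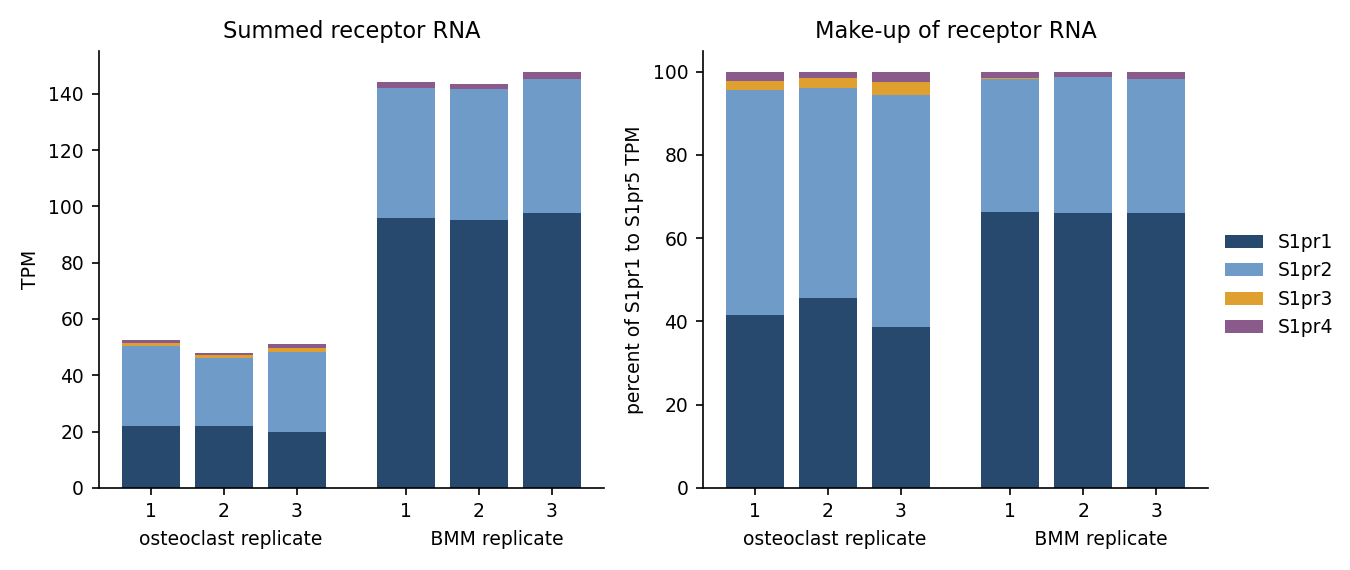
Summed S1P receptor RNA (TPM, first panel) and the percent of it held by each receptor (second panel) as stacked bars for the 3 osteoclast and 3 BMM libraries, with S1pr5 too scarce to draw. S1pr2 held 50.3% to 55.7% in osteoclasts and 31.9% to 32.5% in BMMs, while S1pr1 held 38.7% to 45.7% in osteoclasts and 66.0% to 66.4% in BMMs.

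Both enzymes that remove S1P inside the cell were lower in osteoclasts, Sgpp1 by more than Sgpl1. Sgpp1 encodes the S1P phosphatase of the endoplasmic reticulum, which returns S1P to sphingosine for reuse in ceramide. The gene (ENSMUSG00000021054) lies on the minus strand of chromosome 12, from 75714249 to 75735729. Sgpp1 measured 46.4, 48.6 and 36.2 TPM in osteoclast replicates 1 to 3, and 84.8, 80.1 and 84.1 TPM in BMM replicates 1 to 3. Osteoclast replicate 3 was the lowest, and all osteoclast libraries lay well below the BMM libraries. The means were 43.7 ± 6.57 TPM in osteoclasts and 83.0 ± 2.55 TPM in BMMs, 47.3% lower, with a log2 fold change of -0.92 ± 0.11 (SE, limma adjusted p = 9.0e-05).

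Sgpl1 encodes the S1P lyase, the only known route by which sphingolipid backbones leave the pathway. It was the most abundant of the 8 genes in both groups. The gene (ENSMUSG00000020097) lies on the minus strand of chromosome 10, from 61098642 to 61147703. It measured 239.6, 197.6 and 221.6 TPM in osteoclast replicates 1 to 3, and 253, 253 and 263 TPM in BMM replicates 1 to 3. The groups did not overlap, but osteoclast replicate 1 came close to the BMM libraries. Sgpl1 averaged 219.6 ± 21.1 TPM in osteoclasts and 256 ± 5.65 TPM in BMMs, 14.3% lower, with a log2 fold change of -0.23 ± 0.07 (SE, limma adjusted p = 0.024). The call was lost without the filter (adjusted p = 0.054) and when BMM replicate 1, 2 or 3 was left out (log2 fold changes of -0.23, -0.23 and -0.21, adjusted p = 0.058, 0.059 and 0.082). It was kept without osteoclast replicate 2, the lowest library, at -0.15 (adjusted p = 0.027), and under the 3 scalings, at -0.44, -0.43 and -0.40 (adjusted p = 5.1e-04, 0.0013 and 0.002). Summed Sgpl1 and Sgpp1 RNA was 2.76 ± 0.313 times summed kinase RNA in osteoclasts and 5.08 ± 0.225 times in BMMs (exact permutation p = 0.1), with osteoclast replicates at 3.10, 2.72 and 2.48 and BMM replicates at 5.30, 4.85 and 5.10.

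**Figure D3:**
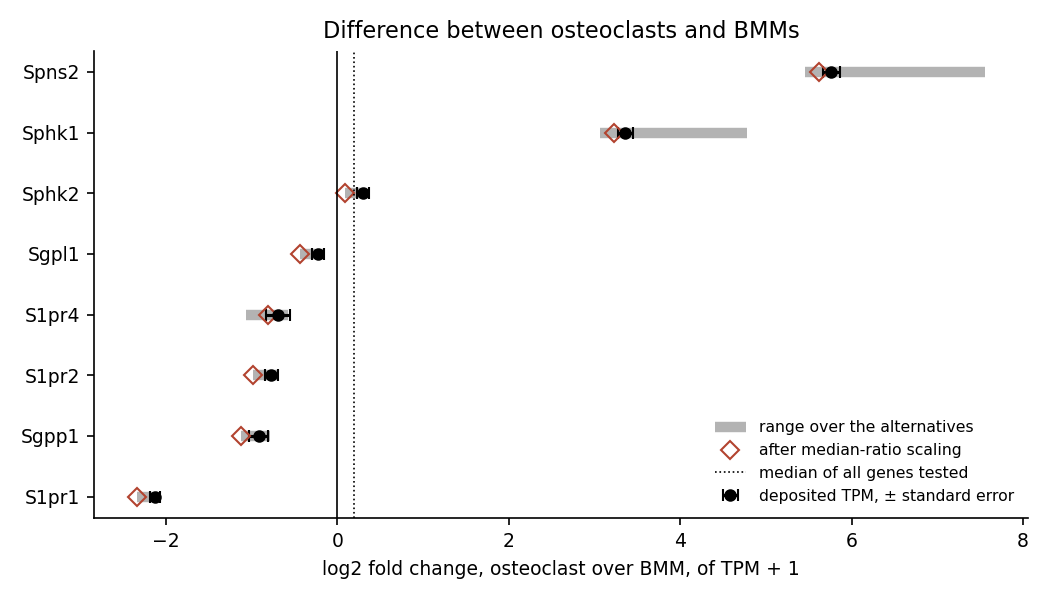
Log2 fold change of TPM + 1, osteoclast over BMM, for each S1P gene (black points with standard errors), with its range over the alternatives (grey bars), its value after median-ratio scaling (diamonds) and the median of all genes tested (dotted line, 0.19). Spns2 (5.76) and Sphk1 (3.36) stood far above 0 and S1pr1 (-2.13) far below it, whereas Sphk2 (0.30) and Sgpl1 (-0.23) lay close to 0.

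Since TPM is scaled by length, the levels of the 8 genes can be ordered within each group. In osteoclasts the order of TPM was Sgpl1, Sphk2, Spns2, Sgpp1, S1pr2, S1pr1, Sphk1 and S1pr4, and no neighbours in it had overlapping ranges. In BMMs it was Sgpl1, S1pr1, Sgpp1, Sphk2, S1pr2, S1pr4, Sphk1 and Spns2, and only the last 2 overlapped, Sphk1 at 0.340 to 0.426 TPM and Spns2 at 0.168 to 0.371 TPM. Spns2 was thus the third in osteoclasts and the last in BMMs, and S1pr1 was the sixth in osteoclasts and the second in BMMs.

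Among other genes that carry, sense or degrade S1P, the phosphatase gene Plpp1 rose and Abca1 and Aldh3a2 fell. Of 11 such genes, 6 were tested, and 1 was higher, 2 were lower and 3 did not pass (1 higher and 4 lower after median-ratio scaling). Among all genes tested, 45.3% were higher and 23.5% were lower, or 33.7% higher and 33.5% lower after that scaling. Plpp1, a lipid phosphatase that acts on S1P and related lipids at the cell surface, measured 25.0 ± 0.277 TPM in osteoclasts and 1.28 ± 0.330 TPM in BMMs (log2 fold change 3.52, limma adjusted p = 8.0e-08). This was the one of the 6 tested genes that rose. Without the filter, 2 of the 11 genes were higher and 3 were lower. Plpp2, of the same family, measured 45.8 ± 1.18 TPM in osteoclasts and 42.4 ± 0.286 TPM in BMMs (log2 fold change 0.11, adjusted p = 0.10), and the sign of its change turned with scaling. Abca1, a lipid exporter best known for cholesterol that also releases S1P, fell to 20.9 ± 4.89 TPM in osteoclasts, against 67.1 ± 1.49 TPM in BMMs (log2 fold change -1.66, adjusted p = 2.5e-05). Aldh3a2, the aldehyde dehydrogenase that acts on the fatty aldehyde left by the lyase, was 27.2 ± 1.06 TPM in osteoclasts and 37.6 ± 0.726 TPM in BMMs (log2 fold change -0.46, adjusted p = 1.9e-04). The median log2 fold change of the 6 was -0.19, where all genes tested had 0.19.

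Genes of de novo ceramide synthesis had log2 fold changes of -0.89 to 0.44. Of 17, 12 were tested, 3 were higher, 2 were lower and 7 did not pass, and the median log2 fold change was -0.02. By comparison, 68.9% of all genes tested passed, 45.3% higher and 23.5% lower. Degs1, the desaturase that completes ceramide, measured 282 ± 22.7 TPM in osteoclasts and 207 ± 2.21 TPM in BMMs (log2 fold change 0.44, adjusted p = 4.2e-04). Ormdl3, a subunit that restrains serine palmitoyltransferase, measured 37.3 ± 2.69 TPM in osteoclasts and 27.9 ± 0.571 TPM in BMMs (log2 fold change 0.40, adjusted p = 9.9e-04), but the change was 0.20 after median-ratio scaling (adjusted p = 0.065). The genes that fell were Degs2, a related desaturase and hydroxylase, at 5.01 ± 0.695 TPM in osteoclasts and 10.1 ± 1.37 TPM in BMMs (log2 fold change -0.89, adjusted p = 3.0e-04), and the ceramide synthase Cers6 at 21.3 ± 3.05 TPM in osteoclasts and 27.3 ± 0.345 TPM in BMMs (log2 fold change -0.35, adjusted p = 0.014). After median-ratio scaling the list had 1 gene higher and 6 lower, where 33.7% of all genes tested were higher and 33.5% lower.

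Genes that turn over ceramide, some of which release sphingosine, the substrate of the kinases, were mostly lower where they passed the test. The list also holds genes that use ceramide for other lipids, named after their values were seen. Of these, Cerk and Sgms2 were lower, and Ugcg, Sgms1 and Samd8 did not pass. Counts over the list therefore do not measure the supply of sphingosine. Of 18, 16 were tested, 3 were higher, 9 were lower and 4 did not pass, with a median log2 fold change of -0.26 (2 higher and 10 lower after median-ratio scaling). Over all genes tested 68.9% passed, 45.3% higher and 23.5% lower, or 33.7% higher and 33.5% lower after that scaling. Smpd1, the lysosomal acid sphingomyelinase, rose to 109 ± 3.55 TPM in osteoclasts, against 31.8 ± 0.489 TPM in BMMs (log2 fold change 1.74, adjusted p = 6.5e-08). Acer3, an alkaline ceramidase, measured 9.71 ± 1.54 TPM in osteoclasts and 6.25 ± 0.230 TPM in BMMs (log2 fold change 0.55, adjusted p = 0.0029). Both act in steps that lead toward sphingosine. Smpd4, a neutral sphingomyelinase, was 14.6 ± 0.858 TPM in osteoclasts and 11.4 ± 0.661 TPM in BMMs (log2 fold change 0.34, adjusted p = 0.0048), a call lost under 3 scalings at log2 fold changes of 0.14 to 0.18. Smpd3, another neutral sphingomyelinase, was 0.218 ± 0.119 TPM in osteoclasts and 2.58 ± 0.257 TPM in BMMs (log2 fold change -1.56, adjusted p = 1.2e-05). Smpd3 passed the filter only through its BMM libraries and so had to differ to be tested, and its change was -3.14 with a pseudocount of 0.1 TPM. Psap, the precursor of the saposins that assist lysosomal sphingolipid hydrolysis, was 6632 ± 263 TPM in osteoclasts and 14479 ± 379.7 TPM in BMMs (log2 fold change -1.13, adjusted p = 4.9e-07). Asah1, the acid ceramidase, chosen after its values were seen, was 232.8 ± 20.7 TPM in osteoclasts and 330.5 ± 9.67 TPM in BMMs (log2 fold change -0.51, adjusted p = 3.0e-04).

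Genes that couple S1P receptors to G proteins and small GTPases were divided. Of 18, 17 were tested, 6 were higher, 5 were lower and 6 did not pass, with a median log2 fold change of -0.05 (4 higher and 8 lower after median-ratio scaling). The share of all genes tested that passed was 68.9%, with 45.3% higher and 23.5% lower, or 33.7% higher and 33.5% lower after that scaling. Rac2, a small GTPase of blood cells, rose to 666 ± 42.1 TPM in osteoclasts, against 281 ± 6.19 TPM in BMMs (log2 fold change 1.24, adjusted p = 4.9e-07). Gna12, the G12 protein alpha subunit, fell to 125 ± 9.28 TPM in osteoclasts, against 304 ± 5.20 TPM in BMMs (log2 fold change -1.28, adjusted p = 6.6e-07). The catalytic and adaptor genes of phosphoinositide 3-kinase gamma, an effector of Gi-coupled receptors, moved in opposite directions. Pik3cg measured 24.7 ± 4.05 TPM in osteoclasts and 63.8 ± 2.70 TPM in BMMs (log2 fold change -1.34, adjusted p = 1.5e-05), and its adaptor Pik3r5 measured 187.6 ± 31.5 TPM in osteoclasts and 92.4 ± 1.02 TPM in BMMs (log2 fold change 1.00, adjusted p = 8.6e-05).

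Most genes known to act on S1pr1 itself were lower in osteoclasts. Of 6, 5 were tested, 0 were higher in the limma fit, 4 were lower and 1 did not pass, with a median log2 fold change of -0.60. In the same fit, 45.3% of all genes tested were higher and 23.5% lower. Klf2, a transcription factor that activates S1pr1 in mouse T cells, measured 20.5 ± 1.51 TPM in osteoclasts and 36.7 ± 2.89 TPM in BMMs (log2 fold change -0.81, adjusted p = 4.6e-05). Arrb2, an arrestin that binds activated receptors, was 174 ± 12.1 TPM in osteoclasts and 373 ± 10.3 TPM in BMMs (log2 fold change -1.10, adjusted p = 1.3e-06). Grk2, a kinase that marks activated receptors for internalization, was 205 ± 14.8 TPM in osteoclasts and 262 ± 4.03 TPM in BMMs (log2 fold change -0.35, adjusted p = 0.001). Members of the list thus include genes that raise S1pr1 and genes that take it from the surface. Foxo1, a transcription factor that acts upstream of Klf2 in mouse T cells, measured 4.36 ± 0.324 TPM in osteoclasts and 3.60 ± 0.413 TPM in BMMs (log2 fold change 0.22, adjusted p = 0.088). It was also the one tested gene of the list with a positive value. At an unadjusted p under 0.05, 0 of the 5 tested genes were higher as well, and without the filter 1 of the 6 genes was higher and 4 were lower.

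**Figure D4:**
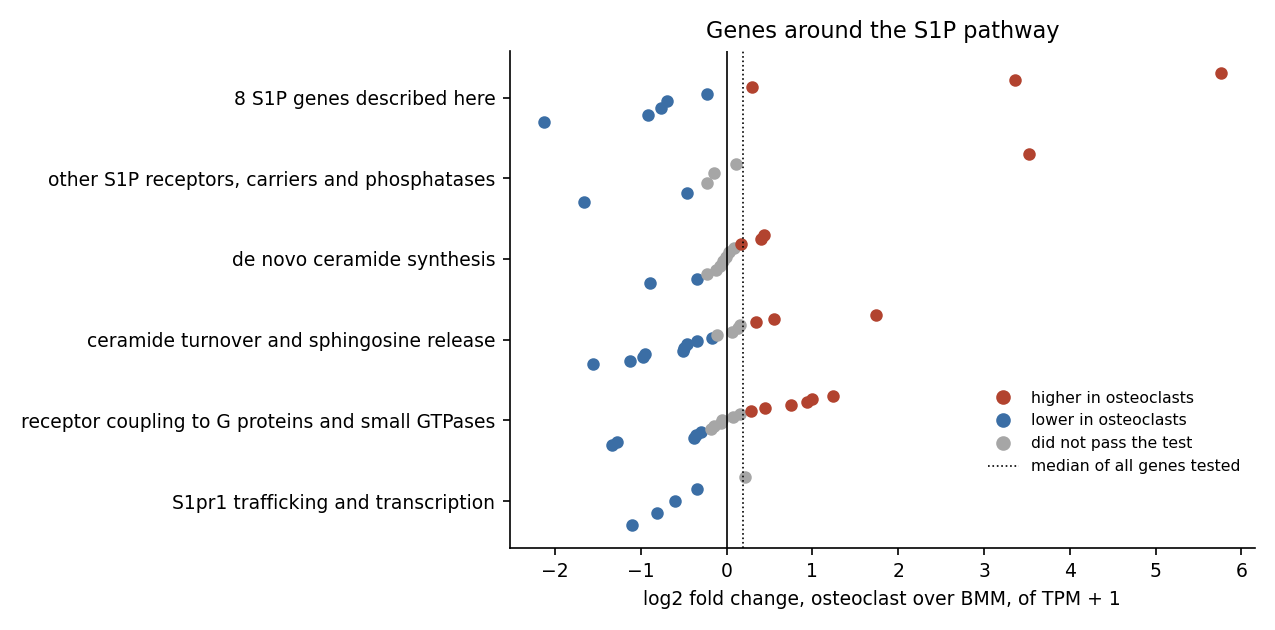
Log2 fold change of TPM + 1, osteoclast over BMM, of every tested gene in the S1P set and 5 related lists, 1 point a gene, coloured by whether it was higher, lower or did not pass the test, with a dotted line at the median of all genes tested (0.19). The S1P genes spread from -2.13 to 5.76, and the genes of de novo ceramide synthesis from -0.89 to 0.44.

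Markers of other cell types that express S1P genes were also measured. Endothelial cells are a known source of Spns2 and S1pr1. Of 10 endothelial markers, 1 passed the filter, Cldn5 was listed at 0 in all libraries and Tek at 0 in all osteoclast libraries, and their sum was 5.35 to 6.58 TPM in osteoclasts and 7.21 to 7.96 TPM in BMMs. Vwf, the most abundant of them, measured 4.84 ± 0.862 TPM in osteoclasts and 4.46 ± 0.112 TPM in BMMs (log2 fold change 0.09, adjusted p = 0.54). Lymphocytes carry S1pr1 and S1pr4, and summed T and NK cell markers were 11.5 to 12.3 TPM in osteoclasts and 11.9 to 13.3 TPM in BMMs, with members that moved in both directions. Cd4 stood at 4.56 TPM in osteoclasts and 8.18 TPM in BMMs (log2 fold change -0.73, adjusted p = 7.1e-04), whereas Trac, the T cell receptor alpha constant gene, stood at 5.56 TPM in osteoclasts and 0.281 TPM in BMMs (log2 fold change 2.36, adjusted p = 1.4e-06). Summed B cell markers were 0.794 to 1.44 TPM in osteoclasts and 9.62 to 10.5 TPM in BMMs, led by Cd79b at 0.758 TPM in osteoclasts and 8.66 TPM in BMMs, with Pax5 at 0 in osteoclasts. Dendritic cell markers summed to 1.25 to 1.48 TPM in osteoclasts and 0.594 to 0.733 TPM in BMMs, with Zbtb46 at 1.12 TPM in osteoclasts and 0.161 TPM in BMMs and Siglech at 0 in osteoclasts and 0.206 TPM in BMMs. Trac passed the filter only through its osteoclast libraries, and Trac and Siglech were named after their values were seen. Neutrophil markers, all 7 lower where 23.5% of all genes tested were lower, summed to 14.4 to 25.9 TPM in osteoclasts and 2933 to 3197 TPM in BMMs. They were led by S100a9 at 10.9 TPM in osteoclasts and 1726 TPM in BMMs, with Elane at 0 in osteoclasts. Elane, Mpo, Camp and Ltf, like Cd79b above, passed the filter only through their BMM libraries, so they had to differ to be tested. Platelet and erythroid markers summed to 208 to 255 TPM in osteoclasts and 1938 to 2037 TPM in BMMs, nearly all of it Pf4 at 225 TPM in osteoclasts and 1987 TPM in BMMs, with Gp9 and Hba-a1 at 0 in osteoclasts. Stromal and osteoblast markers summed to 106 to 132 TPM in osteoclasts and 6.72 to 7.14 TPM in BMMs, led by Col1a1 at 85.6 TPM in osteoclasts and 3.87 TPM in BMMs, with Bglap at 0 in BMMs. Nearly all of the osteoclast sum was Col1a1 and Col1a2, the latter at 34.0 TPM in osteoclasts and 1.77 TPM in BMMs. Runx2 did not pass, at 1.18 TPM in osteoclasts and 0.900 TPM in BMMs (limma adjusted p = 0.2). Sp7, Bglap, Pdgfra, Cxcl12 and Lepr fell below the filter. Col1a2 and these other members were named after their values were seen. The part of these cell type lists, the endothelial list included, in the values of the S1P genes was not tested. Acp5, the osteoclast phosphatase TRAP, measured 13052 ± 405 TPM in osteoclasts and 53.8 ± 1.55 TPM in BMMs. Cd68, a lysosomal glycoprotein of macrophages, measured 3584 ± 297 TPM in osteoclasts and 2796 ± 31.3 TPM in BMMs. It was called higher, a call lost after median-ratio scaling (log2 fold change 0.14, adjusted p = 0.15). Cd68 was the most abundant of the 9 macrophage markers and most of their sum in osteoclasts. None of the others was called higher, and 7 were lower.

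The genes whose pattern was most like those of Spns2 and Sphk1 were sought by the Euclidean distance of centred log2(TPM + 1) over the 6 libraries, a description in which group membership dominates. Closest to Spns2 were Cyp2s1, a cytochrome P450 (distance 0.22, 64.5 TPM in osteoclasts and 0.161 TPM in BMMs), the surface glycoprotein gene Msln (0.262, 59.4 TPM in osteoclasts and listed at 0 in BMMs) and Kbtbd11, which encodes a BTB and Kelch domain protein (0.372, 53.7 TPM in osteoclasts and 0.198 TPM in BMMs). Closest to Sphk1 were Gm18561 (distance 0.103, 9.37 TPM in osteoclasts and listed at 0 in BMMs), the protein phosphatase gene Ppm1j (0.12, 20.9 TPM in osteoclasts and 1.15 TPM in BMMs) and Ckb, the brain-type creatine kinase (0.136, 10434 TPM in osteoclasts and 1003 TPM in BMMs). Cyp2s1, Msln, Kbtbd11 and Gm18561, like Spns2 and Sphk1, passed the filter only through their osteoclast libraries, so they had to differ to be searched. Likeness here is in the size of the change and not in level, since Ckb was far more abundant than Sphk1 in both groups.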

How the data were processed

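The 3 osteoclast and 3 BMM RNA-Seq libraries were grouped by their labels. Per the labels and methods, RNA was extracted with RNeasy kits, libraries were made with the NEBNext Ultra II kit, and paired reads of 150 bases went through bcl2fastq 2.17, Trimmomatic 0.36 for trimming and STAR 2.5.2b for alignment to mm10. The authors tested gene hit counts with DESeq2 and deposited TPM, the unit used here without rescaling. No source used here states how reads were counted, whether strand was used, or how repeated matches were treated.

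Of 49315 genes, the 12325 that averaged 1 TPM or more over 6 libraries were fitted in limma 3.58.1 (R 4.3.3) on log2(TPM + 1), with the intensity trend, two-sided, with Benjamini-Hochberg adjustment over all genes tested and a threshold of 0.05. No count test or counting interval was possible, since TPM keeps no depth. For ratios and shares, a two-sided exact permutation test was used. Results were recomputed with a pseudocount of 0.1 or 0.5 TPM, without the filter, with a filter at 5 TPM, after median-ratio scaling, quantile normalization, rescaling without mitochondrial and the 20 highest genes, without the trend, with a replicate block, without each library, and with a minimum log2 change of 1 in size. The fit was first tested on simulated data with independent noise and few changed genes. That setting differs from these data, in which 68.9% of all genes tested passed.

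Named genes were the 8 S1P genes, the 2 largest and 2 smallest changes of each related list with up to 3 exceptions to its direction, the most abundant gene of each marker list, and the 3 nearest patterns to the 2 S1P genes that changed most. Others are marked in the text or share exonic bases with an S1P gene. The genes, lists and alternatives were chosen with earlier results of these data known. Coordinates are those of GENCODE vM21 on GRCm38, which held 48970 of the gene identifiers, and promoters are from RefSeq (GRCm38.p6). Tables and plots were made with Python 3.11.15, pandas 2.3.3, NumPy 2.4.6, SciPy 1.17.1 and matplotlib 3.10.9. Proteins were not analysed here. A few marker genes are left unreported.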

Additional observations from a re-analysis of the deposited data

How the results depend on the processing

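Of the 8 S1P genes, Spns2, Sphk1, S1pr1, S1pr2, S1pr4 and Sgpp1 kept their direction and their call in every alternative that could be fitted, which for S1pr4 leaves out the filter at 5 TPM. Their log2 fold changes ranged over 5.46 to 7.56 for Spns2, 3.06 to 4.78 for Sphk1, -2.34 to -2.09 for S1pr1, -0.98 to -0.70 for S1pr2, -1.07 to -0.58 for S1pr4 and -1.13 to -0.79 for Sgpp1. Sphk2 kept its direction but lost its call under 3 scalings, and Sgpl1 lost its call without the filter or without any 1 BMM library, with log2 fold changes of -0.44 to -0.15 over its alternatives. The cause was not tested. With a required absolute log2 fold change of at least 1, 3 of the 8 genes passed (2 higher and 1 lower), against 2614 of all genes tested in place of 8486. The related lists then had 0 genes of de novo ceramide synthesis past the threshold in limma in place of 5 (0 also at an unadjusted p under 0.05, since no tested gene of that list reached this size), 3 of ceramide turnover in place of 12, 3 of receptor coupling in place of 11, and 1 of S1pr1 trafficking in place of 4. Other S1P receptors, carriers and phosphatases had 5 calls without the filter, after median-ratio scaling, after quantile normalization and after rescaling without the highest genes, in place of 3, and de novo ceramide synthesis had 8 after quantile normalization. The sign of Plpp2 turned to -0.10 after median-ratio scaling, -0.10 after quantile normalization and -0.06 after rescaling, and that of Vwf to -0.09, -0.11 and -0.06 under the same settings and to -0.01 without osteoclast replicate 3, with a range of -0.01 to 0.21 over the libraries left out. With the replicate number as a block, 8 of the 8 S1P genes and 8323 of all genes tested were called. The labels give both groups the same numbers, but deviations of same-numbered libraries correlated at -0.049, -0.003 and -0.068, no library correlated best with its own number, and the numbers were not taken to pair the libraries. The values of lowly expressed genes, above all S1pr4 and the BMM levels of Sphk1 and Spns2, rest on an unknown number of reads.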

Other observations

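Some S1P-related genes fell below the filter on low values but had groups that did not overlap. They were chosen after their values were seen and were not tested. The groups also did not overlap for 73.5% of all genes tested, and the share among genes below the filter was not computed. Acer2, the alkaline ceramidase of the Golgi, measured 1.34, 1.13 and 1.18 TPM in osteoclast replicates 1 to 3, and 0.451, 0.534 and 0.636 TPM in BMM replicates 1 to 3. Cers4, a ceramide synthase, measured 0.433, 0.269 and 0.299 TPM in osteoclast replicates 1 to 3, and 1.22, 1.26 and 1.16 TPM in BMM replicates 1 to 3. Cd69, a surface protein that takes S1pr1 off the membrane of lymphocytes, measured 0.531, 0.589 and 0.638 TPM in osteoclast replicates 1 to 3, and 0.237, 0.214 and 0.335 TPM in BMM replicates 1 to 3. All 3 genes were scarce in both groups.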
